A study of Drosophila melanogaster with 6 samples.

Results

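The 8 genes described here are Dll, dac, bab1, bab2, B-H1, B-H2, al and Lim1, transcription factors that pattern the leg of Drosophila along its length. They were taken by symbol from the deposited gene and exon tables, which gave 8 of the 12392 genes with exon counts in every library, and all 8 passed the filter on low counts. RNA was sequenced from indirect flight muscle (IFM, the fibrillar muscle that powers the wings), brain and whole leg of wild-type w1118 pupae kept at 27 °C and dissected at 72 h after puparium formation, with no transgene and no treatment. Each tissue has 2 libraries, 6 in all, which the study calls biological duplicates. How many animals made up a library was not analysed here, and the p-values therefore speak only of the spread from library to library. The labels give another library and sequencing provider for IFM than for brain and leg, whereas the study's methods name the same provider for every tissue. If the labels hold, tissue and provider cannot be told apart in any comparison with IFM. The whole leg holds epidermis, muscle, tendons and nerves together, and in such bulk samples fewer cells of a type and less RNA per cell cannot be told apart.

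The fly leg is laid out as rings along its proximal to distal axis in the larval leg disc, where gradients of Dpp and Wg set the first domains and EGF receptor signalling refines the tip. dac is needed for the middle of the leg and Dll for its distal part. bab1 and bab2 shape the tarsal segments, B-H1 and B-H2 the far tarsus, and al together with Lim1 the pretarsus, which carries the claws. Several of these factors are also used in neurons: dac is known from the mushroom body and the retina, and B-H1 and B-H2 from photoreceptors and sensory organs.

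Reads per exon bin, a stretch of exon with the same set of transcripts, were deposited as counts for each library and were summed per gene. Libraries hold between 67091219 and 177964590 such counts. Levels are given in CPM, counts scaled to the size of the library with TMM, whose factors ran from 0.577 for IFM to 1.78 for brain, and as CPM per kilobase of exon where genes are set against each other. Marker genes were read as sums over fixed lists. 9 epidermal genes summed to 4021 and 3591 CPM for leg and to between 798 and 909.6 CPM for IFM and brain. 4 fibrillar muscle genes reached 76610 and 106194 CPM for IFM, and 5 neuronal genes 5234 and 3821 CPM for brain. 4 tendon genes reached 1142 and 1003 CPM for leg. Each of these sums was highest in the tissue named, but markers of other tissues were present as well. 6 general muscle genes summed to 12403 and 9189 CPM for brain, more than its neuronal sum. They reached 105764 and 101864 CPM for leg and 179357 and 276720 for IFM. 5 blood and fat body genes held 1049 and 862 CPM for IFM, 277 and 382 for leg and 183 and 127 for brain. 6 photoreceptor genes stood at 2565 and 3164 CPM for brain, against 180.2 and 297.1 for IFM and 35.8 and 45.9 for leg. 5 genes of sensory organs were at 492.8 and 263.7 CPM for brain, 353.4 and 294.0 for leg and 33.0 and 28.3 for IFM. The brain sum was mostly pros, which is also a gene of the central nervous system: the other 4 summed to 27.3 and 17.6 CPM for brain and 324.8 and 272.8 for leg, and 3 of the 5 were higher in leg than in brain and 1 lower. The part of these cell types in the results was not tested.

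Of the 8 genes, 7 were higher in leg than in IFM and bab1 did not pass, by edgeR's quasi-likelihood test with Benjamini-Hochberg adjustment over 12285 genes at 0.05. Over all genes 27.0% were called higher and 30.5% lower in leg in this comparison. Against brain, 3 of the 8 were higher in leg (Dll, B-H2 and al), where 22.7% of all genes were, and 2 were lower (bab1 and bab2), where 20.9% were. The median log2 fold change of the 8 genes was 2.94 against IFM and 0.78 against brain, beside −0.11 and 0.04 over all genes tested. Brain itself exceeded IFM for 5 of the 8 genes and was lower for al, where 31.4% of all genes were called higher and 35.3% lower in brain, so low levels in IFM were shared by most of the group. The comparisons share libraries and are not independent of each other. Without IFM library 2, the deeper of the pair, 4 of the 8 genes and not 7 were called higher in leg than in IFM.

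**Figure D1:**
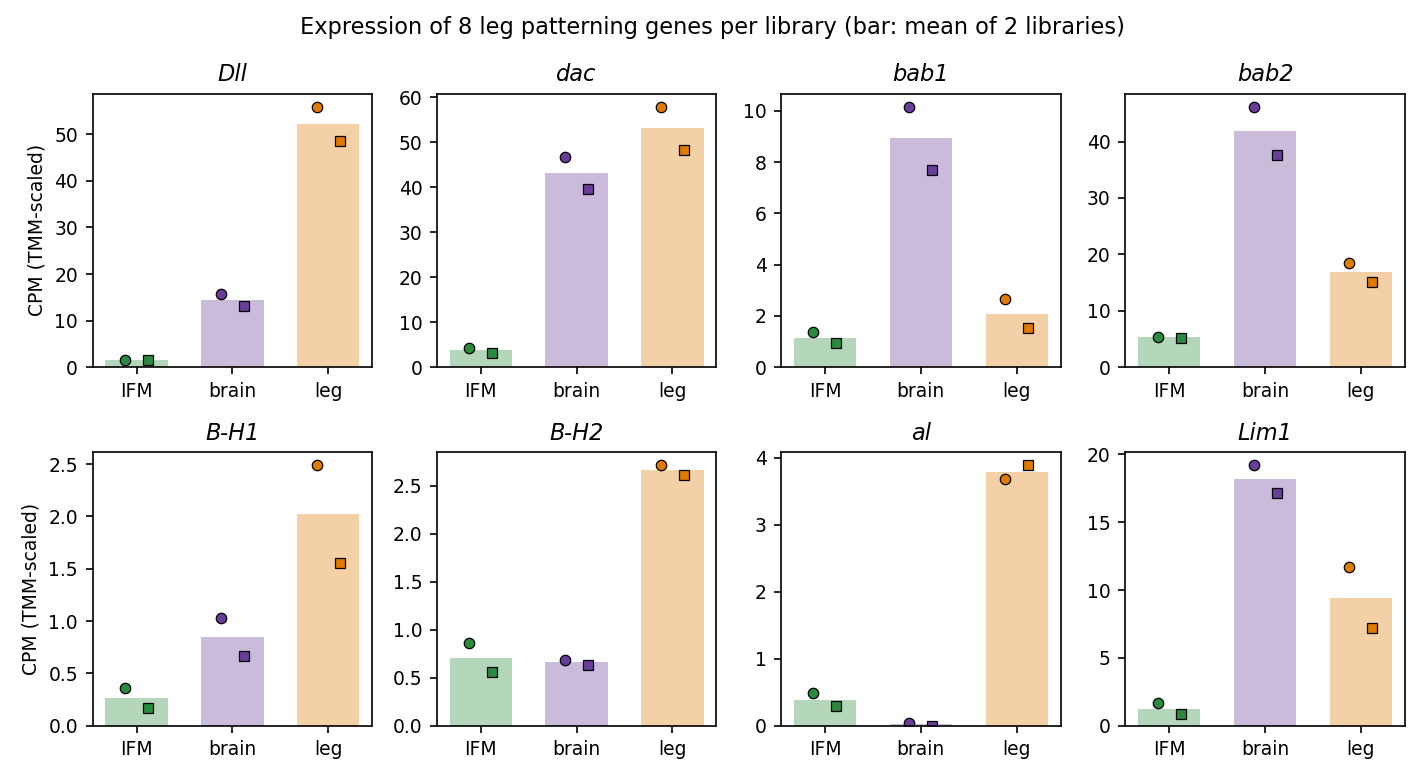
Level of each of the 8 genes in CPM after TMM scaling (vertical axes, linear from 0, with a different range in each panel) in IFM, brain and leg. Circles are library 1, squares library 2 and bars the mean of both. Dll, B-H1, B-H2 and al stand highest in leg, bab1, bab2 and Lim1 highest in brain, and dac is close to level between brain and leg.

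dac, a nuclear factor of the Ski and Sno family, marks the middle of the leg (FBgn0005677; chromosome 2L, 16466512 to 16485998, minus strand, build BDGP6, 6 annotated transcripts). Its exon counts were 273 and 322 for IFM, 5562 and 4715 for brain and 4115 and 3598 for leg. These give 4.29 and 3.14 CPM for IFM, 46.7 and 39.5 CPM for brain and 57.9 and 48.3 CPM for leg. IFM lay far below both other tissues, and every leg library was above every brain library on this scale. The log2 fold change was 3.84 (SE 0.23, adjusted p = 0.000101) between leg and IFM, a 14.3-fold difference, and 3.54 (SE 0.23, adjusted p = 4.89e-05) between brain and IFM. Between leg and brain it was 0.30 (SE 0.20, adjusted p = 0.275), which did not pass the test. With total counts as the only scaling that value turned to −0.56 (adjusted p = 0.0790), so no order of leg and brain can be given for dac.

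Dll, the homeodomain factor required for distal limb identity, showed the largest rise against IFM of the 8 genes (FBgn0000157; chromosome 2R, 24814822 to 24835667, plus strand, 3 transcripts). IFM held 104 and 153 counts, brain 1876 and 1572, and leg 3978 and 3613. In CPM these were 1.63 and 1.49 for IFM, 15.7 and 13.2 for brain, and 56.0 and 48.5 for leg. The tissues did not overlap, with leg on top and IFM at the bottom. Leg exceeded IFM by 5.06 on the log2 scale (SE 0.20, adjusted p = 5.25e-05), a 33.5-fold difference that ranked 170 of 12285 genes. Leg exceeded brain by 1.85 (SE 0.17, adjusted p = 0.000334), and brain exceeded IFM by 3.21 (SE 0.19, adjusted p = 3.95e-05). These 3 calls held under every alternative tried, and against brain the log2 value ran from 0.99 with total counts as the only scaling to 1.96. Per kilobase, Dll made up 44.5% and 46.1% of the summed level of the 8 genes in the leg libraries and between 13.9% and 16.6% in the other 4.

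bab1 and bab2 are neighbouring genes on 3L that encode BTB domain factors of the tarsus (bab1, FBgn0004870, 1036369 to 1101089; bab2, FBgn0025525, 1140429 to 1177276; both on the minus strand). They had a different pattern, with brain well above leg. bab2 counts were 345 and 540 for IFM, 5505 and 4489 for brain and 1318 and 1121 for leg, which is 5.42 and 5.26, 46.2 and 37.6, and 18.5 and 15.04 CPM. bab1 counts were 87 and 97 for IFM, 1211 and 919 for brain and 188 and 113 for leg, or 1.37 and 0.94, 10.2 and 7.70, and 2.65 and 1.52 CPM. For both genes every brain library lay above every leg library, and every leg library above both of IFM.

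Leg was lower than brain for bab2 (log2 fold change −1.319, SE 0.19, adjusted p = 0.00195) and for bab1 (−2.10, SE 0.41, adjusted p = 0.00740). Against IFM, bab2 was higher in leg by 1.65 (SE 0.19, adjusted p = 0.000804). For bab1 the value was 0.85 (SE 0.40, adjusted p = 0.115) and did not pass, except with total counts as the only scaling, where it was 1.44 (adjusted p = 0.0223). Brain exceeded IFM by 2.97 for bab2 (SE 0.20, adjusted p = 5.76e-05) and by 2.95 for bab1 (SE 0.43, adjusted p = 0.00139). bab2 was the more abundant of the pair everywhere, with a per-length ratio to bab1 of 4.10 and 5.75 for IFM, 4.70 and 5.05 for brain, and 7.25 and 10.3 for leg. The ratio was higher in both leg libraries than in the other 4, a difference that was not tested.

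The Bar genes B-H1 and B-H2 are a pair of related homeobox genes on the X chromosome that specify distal tarsal segments (B-H1, FBgn0011758, 17397478 to 17403278; B-H2, FBgn0004854, 17314581 to 17324175; both on the plus strand). Both were near the low end of what was measured. B-H2 counts were 55 and 57 for IFM, 82 and 76 for brain and 193 and 195 for leg, equal to 0.86 and 0.56, 0.69 and 0.64, and 2.72 and 2.62 CPM. B-H1 counts were 23 and 17 for IFM, 123 and 79 for brain and 177 and 116 for leg, equal to 0.36 and 0.17, 1.03 and 0.66, and 2.49 and 1.56 CPM. Leg was highest for both genes, IFM and brain overlapped for B-H2, and brain lay between IFM and leg for B-H1.

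B-H2 exceeded IFM by 1.91 on the log2 scale in leg (SE 0.47, adjusted p = 0.0144) and exceeded brain by 2.01 (SE 0.46, adjusted p = 0.0144). The second call was lost without either brain library or either leg library (adjusted p from 0.0522 to 0.0758) and with total counts as the only scaling (1.14, adjusted p = 0.109), and the first without IFM library 2 (adjusted p = 0.0663). B-H1 exceeded IFM in leg by 2.95 (SE 0.65, adjusted p = 0.0102, or 0.0502 without IFM library 2), and its difference from brain was 1.25 (SE 0.60, adjusted p = 0.143). Between brain and IFM, B-H1 differed by 1.70 (SE 0.63, adjusted p = 0.0509), a value on the edge of the threshold, and B-H2 by −0.09 (SE 0.45, adjusted p = 0.867), whose sign changed with the scaling. The per-length ratio of B-H2 to B-H1 was 2.10 and 2.94 for IFM, 0.58 and 0.84 for brain, and 0.96 and 1.47 for leg. Over all exons B-H2 thus led in IFM, B-H1 led in brain and the leg libraries fell on either side of equality. The lead in IFM came with uneven coverage: the last exon of B-H2 held 81 of its 112 counts and the start exon 8. Over the start exons the order in IFM was reversed, at 0.0060 counts per base for B-H2 and 0.0154 for B-H1. How reads shared by paralogues were counted is not given in the sources used here, which leaves the split within the Bar and the bab pair uncertain.

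al encodes a homeodomain factor needed at the tip of the leg and in the antennal arista (FBgn0000061; chromosome 2L, 378112 to 387439, plus strand, 1 transcript). It had the sharpest difference between leg and brain. Leg held 262 and 290 counts and IFM 31 and 30, while brain held 5 in library 1 and 0 in library 2. In CPM these were 3.69 and 3.89 for leg, 0.49 and 0.29 for IFM, and 0.042 and 0 for brain. The 3 tissues did not overlap. Leg exceeded brain by 7.41 on the log2 scale (SE 1.13, adjusted p = 0.00272), rank 31 of 12285 genes, and this fitted value ran from 6.35 to 11.35 over the alternatives. Its size rests on 5 counts and is no more than a rough guide: without brain library 1 the tissue is left at 0, and the fitted value then depends on the prior count. Leg exceeded IFM by 3.29 (SE 0.90, adjusted p = 0.0215), a call that was lost without IFM library 1 (adjusted p = 0.0653) or 2 (adjusted p = 0.113). In brain al was lower than in IFM (log2 fold change −4.12, SE 1.04, adjusted p = 0.0136), a size that rests on the same 5 counts and went to −8.02 without brain library 1 and to −3.03 without brain library 2. Under total counts as the only scaling this call was lost (adjusted p = 0.0566). al bins were listed only in the tables that include leg.

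Lim1, a LIM homeodomain factor of the pretarsus that is also known from neurons, was high in brain and intermediate in leg (FBgn0026411; X chromosome, 8756539 to 8805804, minus strand, 2 transcripts). Counts were 105 and 87 for IFM, 2289 and 2044 for brain and 829 and 536 for leg. In CPM these were 1.65 and 0.85, 19.2 and 17.1, and 11.7 and 7.19. Brain lay above leg and leg above IFM in every library. Leg exceeded IFM by 2.93 on the log2 scale (SE 0.41, adjusted p = 0.00175) and brain exceeded IFM by 3.87 (SE 0.42, adjusted p = 0.000417). The difference between leg and brain was −0.95 (SE 0.38, adjusted p = 0.0890). It passed when either IFM library was left out (adjusted p = 0.0376 without library 1, 0.0358 without library 2), when only brain and leg were fitted (adjusted p = 0.00678) and with total counts as the only scaling (−1.81, adjusted p = 0.00945).

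**Figure D2:**
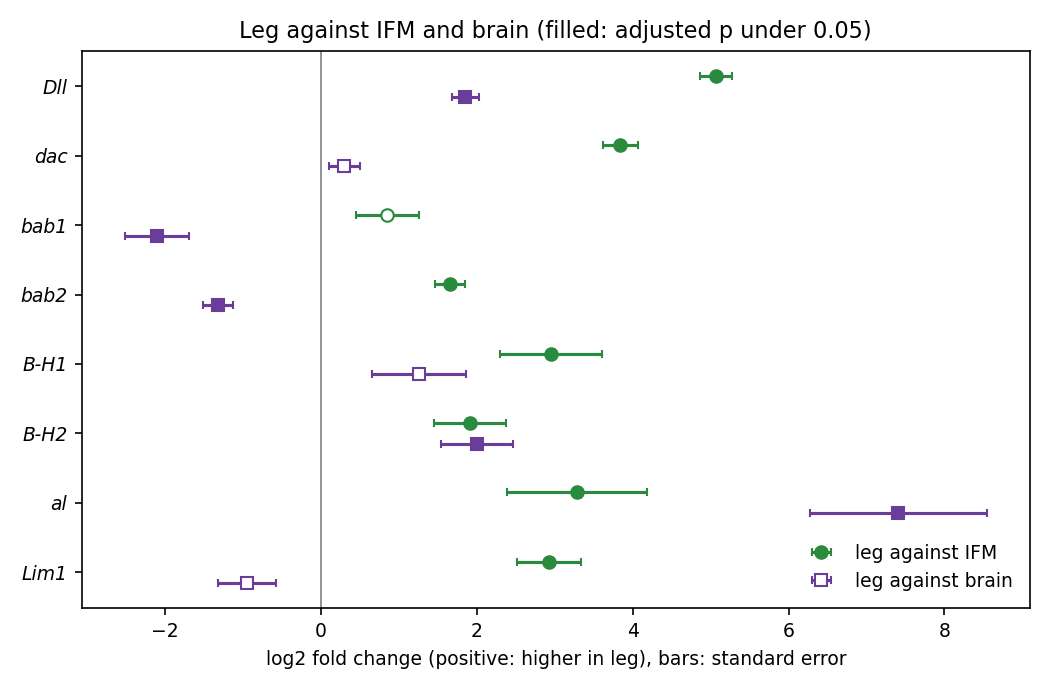
Log2 fold change (horizontal axis) of each gene between leg and IFM (green circles) and between leg and brain (purple squares), with bars for the standard error of the fit. Filled symbols passed an adjusted p of 0.05. Values against IFM run from 0.85 for bab1 to 5.06 for Dll, and those against brain from −2.10 for bab1 to 7.41 for al.

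Scaling bears on these orders. Total counts as the only scaling moved the median of all genes by 0.60 between leg and IFM, by −0.85 between leg and brain and by 1.47 between brain and IFM, and the share of calls that were higher in the tissue named first went to 66.6% (from 46.9%), 20.1% (from 52.1%) and 75.5% (from 47.1%). With upper quartile scaling the shifts were −0.21, 0.11 and −0.32.

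The genes whose profile over the 6 libraries lay nearest to that of each member were found by Euclidean distance of log2(CPM + 1) after centring. For Dll these were Cpr56F, CG5177 and osy (0.272, 0.564 and 0.614 log2 units), and for dac Ddc, caps and Cpr65Au (0.376, 0.586 and 0.612). For bab1 they were Atg1, GramD1B and CG11030 (0.250 to 0.280), for bab2 CG4911, CG43867 and tun (0.147 to 0.207), and for Lim1 Drat, 5-HT2A and sano (0.467 to 0.570). For B-H1 they were fz3, ppk29 and asRNA:CR31912 (0.133 to 0.206), for B-H2 betaggt-I, lncRNA:CR45906 and CG17754 (0.111 to 0.179), and for al CG40160, Pvf1 and Rcd6 (0.148 to 0.274). The added 1 flattens the profile of a low gene such as B-H1, B-H2 or al, so distances cannot be set against each other between members. The genes nearest to a low gene can also differ from it in fold change. CG40160, the nearest to al, had 18.9 and 16.6 CPM for brain and 79.5 and 80.6 for leg. For al these were 0.042 and 0 CPM for brain and 3.69 and 3.89 for leg.

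A list of 29 other regulators of leg axes, joints and tarsus gave the setting for these levels, of which 27 were in the tables and all 27 were tested. In leg 22 were higher than in IFM and 1 was lower, and 17 were higher than in brain and 7 lower, with median log2 fold changes of 2.09 and 1.57. Over all genes 27.0% were called higher and 30.5% lower in leg than in IFM. Against brain these shares were 22.7% and 20.9%. The genes called higher in leg in both comparisons, which use the same leg libraries, were tsh, Sp1, btd, ss, esg, nub, sob, odd, drm, bowl, lin, dysf, H15, mid, en and inv. Over all genes 11.6% were called so in both. ss, which is required for the tarsus, went from 0.973 and 0.740 CPM for IFM and 2.33 and 1.37 for brain to 31.4 and 25.5 for leg, a log2 fold change of 5.06 against IFM (SE 0.37, adjusted p = 0.000165) and 3.95 against brain (SE 0.35, adjusted p = 0.000253). Sp1, a zinc finger factor of leg identity and growth, was higher in leg by 4.02 against IFM (SE 0.39, adjusted p = 0.000437) and 4.01 against brain (SE 0.39, adjusted p = 0.000380). bowl, a zinc finger gene of the odd-skipped family that acts in the tarsus and the joints, was higher by 2.39 (SE 0.24, adjusted p = 0.000460) and 2.82 (SE 0.24, adjusted p = 0.000230).

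hth, which holds proximal leg identity, ran the other way. It was the only gene of the list called lower in leg than in both, at 54.6 and 26.2 CPM for leg, 157.3 and 172.1 for IFM and 132.4 and 89.2 for brain (log2 fold change −2.03 against IFM, SE 0.38, adjusted p = 0.00537, and −1.45 against brain, SE 0.37, adjusted p = 0.0204). Its partner exd, whose protein Hth brings into the nucleus, was higher in leg than in IFM by 0.73 (SE 0.14, adjusted p = 0.00563) and lower than in brain (−0.87, SE 0.14, adjusted p = 0.00302). Like bab2, exd was among the genes higher in leg than in IFM and lower than in brain, with TfAP-2, ap, pdm2 and zfh2. ap, a LIM homeodomain gene of the tarsus and of brain neurons, had 7.39 and 4.84 CPM for IFM, 61.7 and 47.8 for brain and 22.9 and 25.3 for leg, with log2 fold changes of 1.98 (SE 0.25, adjusted p = 0.00120) and −1.19 (SE 0.24, adjusted p = 0.00912). With total counts as the only scaling the list gave 22 higher and 1 lower against IFM, and 12 higher and 9 lower against brain. Without brain library 2, 11 were higher and 6 lower than in brain.

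**Figure D3:**
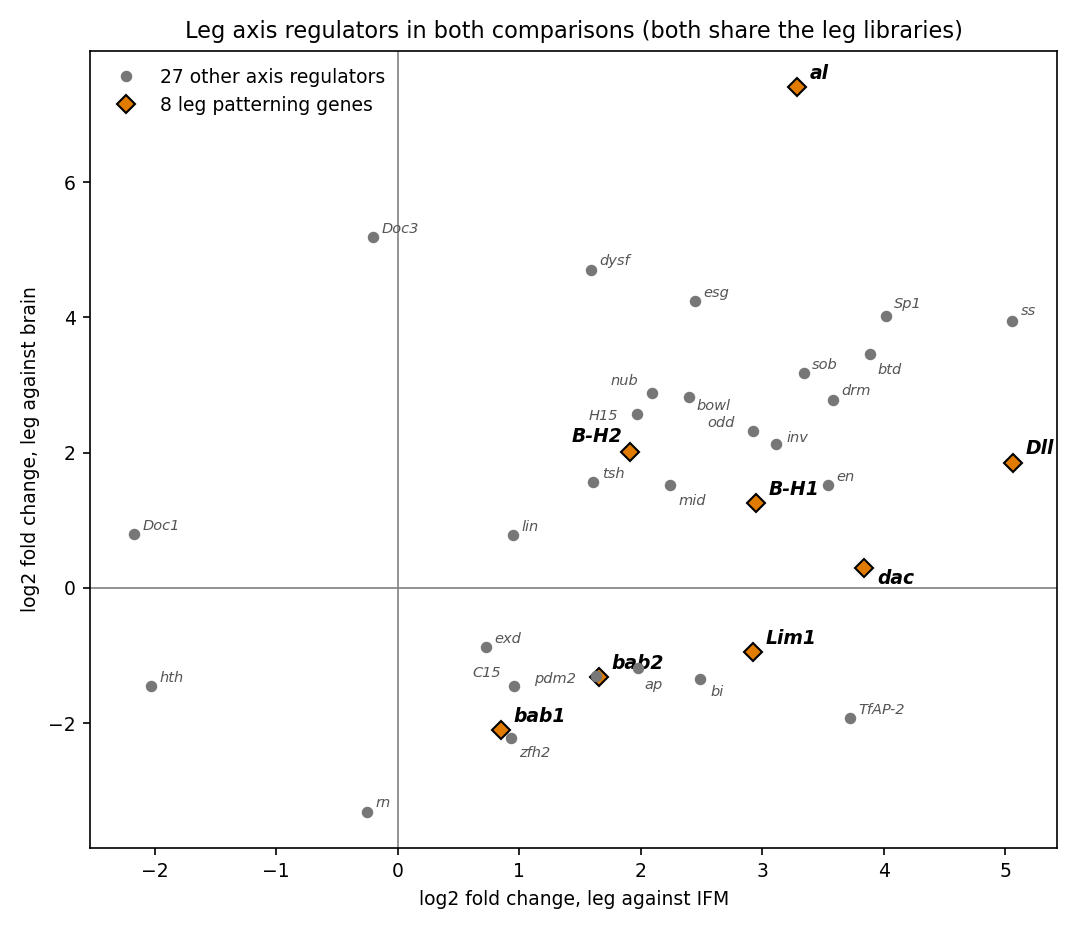
Log2 fold change between leg and IFM (horizontal axis) and between leg and brain (vertical axis) for the 8 genes (orange diamonds) and the 27 other axis regulators (grey circles). Both axes use the same leg libraries, so the points are a description of 2 linked comparisons. Most points lie to the right of 0, bab1, bab2 and Lim1 lie below the horizontal line with 9 of the regulators, and of these hth and rn lie below 0 on both axes.

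Of 30 signalling genes of the leg disc, 20 were higher in leg than in IFM and none was lower by edgeR with TMM scaling (0 at an unadjusted p under 0.05, 1 by DESeq2 and 1 by edgeR with upper quartile scaling), and 20 were higher than in brain and 4 lower, with medians of 1.3 and 1.2. Shares over all genes were 27.0% higher and 30.5% lower against IFM, and 22.7% higher and 20.9% lower against brain. By level the leading 4 were arm (the beta-catenin of Wg signalling), fng (which tunes Notch at segment borders), spi (an EGF receptor ligand) and tkv (a Dpp receptor). fng was higher in leg by 3.32 against IFM (SE 0.24, adjusted p = 0.000162) and 1.497 against brain (SE 0.22, adjusted p = 0.00245), and tkv by 0.64 (SE 0.13, adjusted p = 0.00795) and 0.83 (SE 0.13, adjusted p = 0.00326). arm and spi were higher than in IFM by 0.89 (SE 0.16, adjusted p = 0.00428) and 1.22 (SE 0.17, adjusted p = 0.00186), and lower than in brain (−0.77, adjusted p = 0.00837, and −0.75, adjusted p = 0.0134). The count against brain depended on the scaling, with 9 higher and 7 lower under total counts.

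LIM homeodomain factors act with cofactors, and 6 genes of that group apart from Lim1 and ap were tested. None was higher in leg than in IFM by edgeR on all 6 libraries with TMM scaling and the filter (1 at an unadjusted p under 0.05, and 1 by DESeq2). edgeR called 1 higher under total counts as the only scaling, with no filter and without either IFM library. Lim3 was lower (−1.80, SE 0.45, adjusted p = 0.0162), where 30.5% of all genes were. No gene of the group was called lower when only leg and IFM were fitted. 4 were lower in leg than in brain, where 20.9% of all genes were. Among them were tup (−4.28, SE 0.80, adjusted p = 0.00612), Lim3 (−4.82, SE 0.50, adjusted p = 0.000510) and the cofactor Ssdp (−0.83, SE 0.22, adjusted p = 0.0239). All 6 were called lower than in brain under total counts as the only scaling, by DESeq2 and when only brain and leg were fitted. Fewer than 4 were without brain library 1 or leg library 2. Chi, the cofactor that bridges LIM factors, was at 16.6 and 18.8 CPM for leg, 23.95 and 26.3 for brain and 11.8 and 13.6 for IFM, with adjusted p = 0.0517 against IFM and 0.0528 against brain.

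Exon use was read as the share of a gene's counts in each bin, tested with edgeR's diffSpliceDGE against the other bins of the gene. The bin numbers of Dll, B-H1, B-H2, bab1 and al have gaps, and the missing bins were not tested. For the 8 genes, 52 bins were listed for every library. None passed between leg and IFM (4 at an unadjusted p under 0.05, and 1 by limma), where 3.85% of all 60570 bins did. 1 passed between leg and brain, where 4.15% of all bins did and 2.36% were lower in leg. None passed between brain and IFM (4 at an unadjusted p under 0.05, and 1 by limma), where 6.99% did.

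The bin called was E006 of Lim1, a stretch of 170 bases at 8785184 to 8785353 on X that is the 5′ UTR exon opening the shorter of the 2 annotated transcripts, 20451 bases downstream of the start of the longer. It held 64 and 74 counts for brain, 2 and 0 for leg and 0 and 4 for IFM. As a share of Lim1 counts this was 2.80% and 3.62% for brain, 0.241% and 0% for leg, and 0% and 4.598% for IFM. Summed over both libraries it was 3.18% for brain (138 of 4333 counts, 95% Wilson interval 2.702% to 3.75%) and 0.147% for leg (2 of 1365 counts, 0.0402% to 0.533%), intervals that cover counting error only. Brain and leg did not overlap, whereas the IFM libraries stood on either side of brain and rest on 192 counts. The log2 difference in use between leg and brain was −4.31 (SE 1.12, adjusted p = 0.0163). The call was lost with limma's diffSplice (−4.32, adjusted p = 0.0731) and without any of the brain or leg libraries in turn (the highest adjusted p was 0.168), while the value stayed between −3.66 and −7.43.

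The bins that only the longer Lim1 transcript holds were used in both tissues. Its start exon E009 (8804964 to 8805804) had 328 and 347 counts for brain and 184 and 118 for leg, 14.3% and 17.0% against 22.2% and 22.01% of the gene, with a log2 difference of 0.50 (adjusted p = 1). E007 and E008, coding bins next to it, had 151 and 148 and 78 and 80 counts for brain and 76 and 55 and 25 and 32 for leg. E001 (8756539 to 8757259), the bin with most reads over all libraries though not within leg or IFM, is a 3′ UTR stretch that the annotation gives to the shorter transcript. It had 492 and 297 counts for brain and 124 and 116 for leg (log2 difference −0.05, adjusted p = 1). The start exon of the shorter transcript was thus nearly unread in leg while its 3′ UTR was read at about the same share as in brain.

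**Figure D4:**
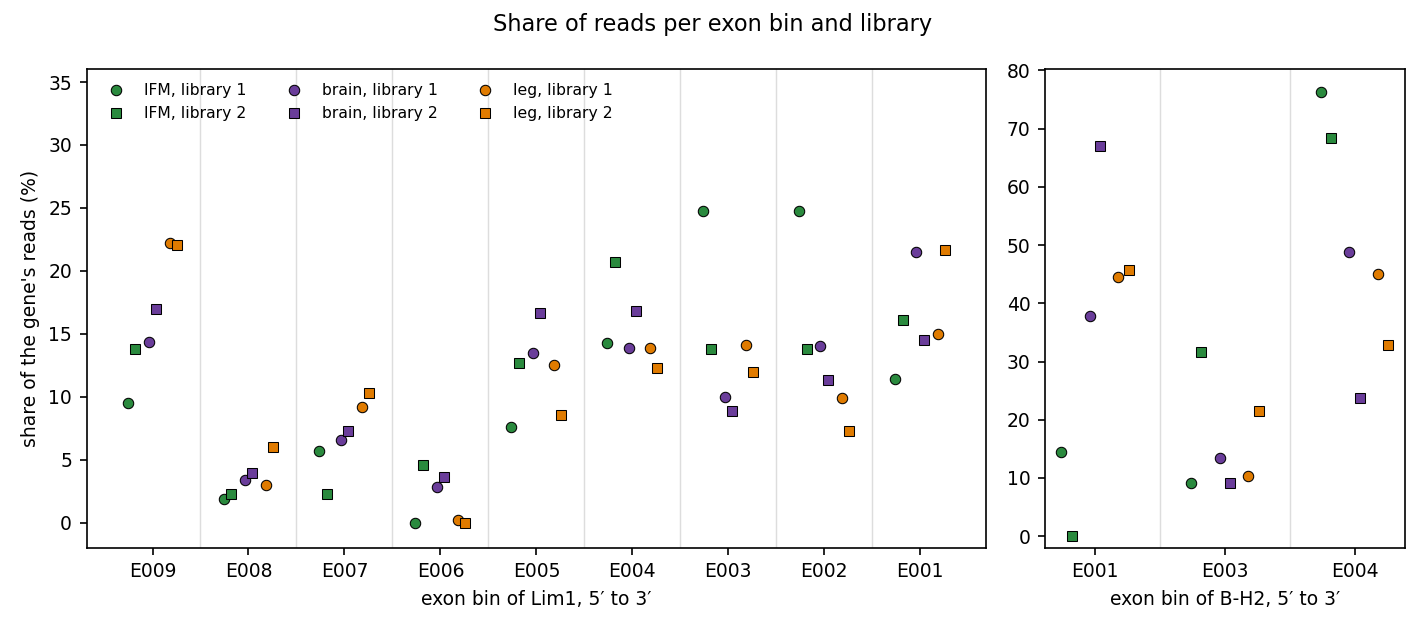
Share of the reads of Lim1 (left) and B-H2 (right) in each exon bin, in percent, ordered from 5′ to 3′ and with 1 point per library (circles library 1, squares library 2). In Lim1 E006 the brain libraries stand at 2.80% and 3.62% and the leg libraries at 0.241% and 0%, and in B-H2 E001 the IFM libraries stand at 14.5% and 0%, below the other 4.

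The bin that limma called in both comparisons with IFM was E001 of B-H2, chosen for mention after its values were seen. It is the start exon, 1331 bases with the 5′ UTR and the first codons. IFM had 8 and 0 counts there, brain 31 and 51 and leg 86 and 89, so its share of the gene was 14.5% and 0% for IFM, 37.8% and 67.1% for brain and 44.6% and 45.6% for leg. The last exon E004 (17322658 to 17324175), which had most reads over all libraries but fewer than E001 in brain and in leg, held 42 and 39 counts for IFM. That was 76.4% and 68.4% of the gene, beside 48.8% and 23.7% for brain and 45.1% and 32.8% for leg. For E001 the log2 difference between leg and IFM was 2.51 (unadjusted p = 0.0150, adjusted p = 0.206 with edgeR and 0.0462 with limma). Without IFM library 1 edgeR called it (7.82, adjusted p = 0.0151), a value that depends on the prior count since IFM is then at 0 in this bin. Between brain and IFM the difference was 2.72 (adjusted p = 0.114 with edgeR, 0.0252 with limma, and 0.00671 with edgeR without IFM library 1). The reads of B-H2 for IFM therefore lay mostly outside its start exon, on 55 and 57 counts in all.

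The bin with most reads over all 6 libraries did not pass in any comparison with leg for the other genes. E010 of Dll, part of the 3′ UTR, held 16.3% and 20.3% of the gene in IFM, 22.2% and 23.7% for brain and 25.1% and 24.2% for leg. E001 of dac, the last exon, held between 17.9% and 22.4% in every library, and E001 of bab2, also the last exon, between 39.6% and 48.2%. E001 of bab1 ran from 48.9% to 82.5%, E001 of B-H1 from 37.9% to 54.3%, and E005 of al from 26.7% to 45.2% in the 5 libraries with any al count. Adjusted p-values of these bins were 0.844 or higher between leg and IFM and 1 between leg and brain. Between leg and brain, log2 differences of the tested Dll bins stayed between −0.33 and 0.39 and those of the tested dac bins between −0.20 and 0.76.

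Small alternative exons were read as well. The 27-base exon E012 of dac (16481525 to 16481551), in 3 of its 6 transcripts, had 2 and 4 counts for IFM, 119 and 121 for brain and 76 and 104 for leg, 2.14% and 2.57% of the gene in brain against 1.85% and 2.89% for leg (log2 difference −0.01, adjusted p = 1). Bin E008 of Dll (24834014 to 24834153) is exon in 2 of the 3 transcripts and intron in the other, and lies between bins that all 3 share. It had 17 and 16 counts for leg, where its neighbours E007 and E009 had 583 and 587 and 628 and 563, and 1 and 7 for brain. It was listed in the table of brain and leg only and so took no part in the tests.

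Reads over splice junctions that the annotation lacks, counted with fortuna, were few in these genes. The 8 genes had 45 such events of 122483 in the series. 3 junctions of Dll were listed under 2 event types with the same reads, so there were 42 junctions with 402 reads in all, and 40 of the 42 skip an exon. By library these were 29 and 19 reads for IFM, 142 and 47 for brain and 82 and 83 for leg. dac had 22 junctions and 184 reads, Dll 8 and 88, bab2 3 and 87, Lim1 5 and 25, al 1 and 11, bab1 2 and 5, B-H2 1 and 2, and B-H1 had none. The event libraries and the columns of the exon tables cannot be matched within a tissue, so a library number here need not name the same column as above. Only 2 events reached the 50 reads asked for testing.

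The dac event joined 16467754 to 16468493 and skipped the coding exon at 16468053, 194 bases long. It had 5 and 0 reads for IFM, 14 and 8 for brain and 9 and 16 for leg. Leg exceeded IFM by 3.58 on the log2 scale (SE 1.17, adjusted p = 0.0318), where 18.0% of 16595 events were called higher in leg, and the value against brain was 0.69 (SE 1.01, adjusted p = 0.641), where 34.8% of events were called in either direction. Brain against IFM gave 2.89 (SE 1.17, adjusted p = 0.0511, or 0.0437 with each junction of the series counted once). The call against IFM was lost with DESeq2 (adjusted p = 0.0667), without IFM library 2 (adjusted p = 0.181) and without leg library 2 (adjusted p = 0.107). Its size also turned on IFM, at 7.40 without IFM library 1 and 2.42 without IFM library 2, and its use relative to the gene was not tested.

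The bab2 event joined 1143929 to 1176981 and skipped the exon at 1172758, which is 1850 bases long and holds the start of the coding region. Its reads were 1 and 3 for IFM, 34 and 2 for brain and 0 and 10 for leg, so the libraries of a tissue differed more than the tissues. Use of this event relative to the gene was not tested. Values were 2.77 for leg against IFM (SE 1.60, adjusted p = 0.183) and −1.25 for leg against brain (SE 1.34, adjusted p = 0.509). For brain against IFM it was 4.02 (SE 1.49, adjusted p = 0.0373), where 30.2% of events were called higher in brain. Without brain library 1 that value fell to 1.14 (adjusted p = 0.676), and the call was also lost without either IFM library, with DESeq2 (adjusted p = 0.0858) and with only the first read end (adjusted p = 0.110).

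Below the testing threshold, the most read event of Dll joined 24820007 to 24833797 over 13789 bases, with 2 and 0 reads for IFM, 17 and 4 for brain and 20 and 6 for leg. That of Lim1 joined 8758404 to 8768056 and skipped the coding exon E003, with 3 and 0, 8 and 3, and 4 and 0 reads. That of al joined 378481 to 385701 and skipped E002, with 2 and 1 reads for IFM, none in brain and 8 and 0 for leg. bab1 and B-H2 had at most 4 and 2 reads on any event. When the minimum was lowered to 10 reads, 10 events of the 8 genes were tested. Leg exceeded IFM for 5 of them, 4 of dac and the Dll event above, where 7.57% of 46884 events were called higher in leg. Brain exceeded IFM for 3, 1 each of dac, Dll and bab2, where 19.8% were called higher in brain. These calls are on event reads alone, and the genes themselves were also higher than in IFM. On the log2 scale the genes rose by 3.84 (dac) and 5.06 (Dll) in leg. In brain they rose by 3.54 (dac), 3.21 (Dll) and 2.97 (bab2). Use of these events relative to their genes was not tested. 2 of the dac events had reads in only 1 leg library, 16 and 0 for one and 0 and 19 for the other.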

How the data were processed

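The submitters' processing notes name STAR 2.7.3a, SAMtools 1.1, Subread 2.0.0 (featureCounts), DESeq2 1.32.0 and the build BDGP6. The deposited exon tables hold raw counts per exon bin and library for pairs of tissues, and the 12 deposited event tables hold raw read counts per unannotated junction and read end, which were added. The gene tables hold the authors' mean normalized signal over 4 libraries, read only to find the genes. Fold changes and p-values in these tables are the authors' own and were not used. Whether counting used strand is not given in the sources used here.

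The 63255 bins with counts in all 6 libraries were summed per gene. Left out were 1011 bins of only 1 table and 78 lines per table whose gene or bin identifier lacked the expected form. A read over several bins counts in each. edgeR 4.0.16 in R 4.3.3 fitted all libraries with tissue as the only factor (filterByExpr, TMM, quasi-likelihood F test, Benjamini-Hochberg, threshold 0.05), with at least 10 reads per bin and 50 per event. Alternatives used DESeq2 1.42.0, limma 3.58.1, other scalings and filters, and left out single libraries. The fits were also run on simulated counts with set rises in leg. That setting lacked the differences in composition between the tissues, so it does not bear on the choice of scaling. Edges of 99.2% of bins match the Ensembl annotation BDGP6.54, which gave exon and UTR labels. Exon columns map to a tissue only, so their library numbers follow column order.

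Genes and lists were chosen with earlier results of these data known. Named are all 8 genes, the 4 most abundant of each list (markers as sums), regulators called the same way against both tissues, the 3 nearest profiles, called and most read bins, and the most read events. tio, Doc2, Bx, elav, ase, Pxn, trh and btl of the lists were not analysed here, and dys was matched as dysf.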

Additional observations from a re-analysis of the deposited data

How the results depend on the processing

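Under the alternatives 77 counts of calls stayed within 1.5 times the value reported and 22 did not. Leaving out 1 library at a time gave 4 to 7 genes called between leg and IFM, 4 to 6 between leg and brain and 6 to 7 between brain and IFM, 0 to 1 bins in each comparison, and 0 to 1, 0 and 0 to 2 events. A tissue left with 1 library is assumed to vary like the others. limma called 1, 0 and 1 bins in the 3 comparisons. Events called with at least 10 reads numbered 5 between leg and IFM and 3 between brain and IFM, and with DESeq2 0 in both. Between brain and IFM total counts as the only scaling called 2 events. With the replicate block 2 events were called there, and the block changed no other call. Counting each junction once, an alternative chosen after seeing the data, also called 2 there and changed no other call. Over all bins, 2330 were called between leg and IFM (3525 with limma, from 1346 with a library left out), 2512 between leg and brain (from 1497) and 4236 between brain and IFM (6545 with limma, from 2414). Over all events, 7087 were called between leg and IFM (from 3917 with a library left out) and 10534 between brain and IFM (17291 with at least 10 reads). The replicate numbers do not pair the tissues (correlations of 0.0115, 0.0124 and 0.0236 over 16595 events).

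The direction of some values that did not pass reversed. These were dac between leg and brain (−0.56 under total counts) and B-H2 between brain and IFM (1.35 under total counts, 0.030 with no filter, 0.09 without brain library 2 and 0.031 without leg library 2, in a range of −0.26 to 0.25 over single libraries left out). Over the same omissions Lim1 E006 ran from −6.70 to 1.18 between leg and IFM and from −0.56 to 5.48 between brain and IFM, and the bab2 event from −3.52 to 3.80 between leg and IFM and from −7.55 to 1.65 between leg and brain. The cause was not tested. No paired analysis was possible for genes and bins because the exon columns carry no replicate number shared with the labels. Only lines with a single gene identifier were read, so restricting sums to bins of single genes was not a separate test.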
